A study of Mus musculus with 10 samples.

Results

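A stretch of mouse chromosome 10 that holds genes of the Raet1 and H60 families was examined in genomic DNA. Its members were 69 array probes with a start between 21.3 and 22.6 Mb on the mm9 build, of 170305 probes in all and 161460 on the autosomes. The interval was chosen by its measured log2 ratios, because one level within it lay below 0 in every animal, so levels are given here as a description without a test. The comparison of the animal groups was not used in the choice and was tested. The probed positions ran from 21312210 to 22559743, a span of 1.25 Mb, and all 69 were well above background in both channels on all arrays.

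Liver DNA of 10 mice was measured on 10 Agilent arrays by comparative genomic hybridisation with 2 dyes. This method reads DNA copy number relative to a second DNA. The ICSI-derived animals, 3 males and 2 females by their labels, were obtained by intracytoplasmic sperm injection from testis cells frozen for 14 years. Such an injection places a single sperm into an oocyte. The sperm were of the ZFLacZ transgenic line and the oocytes of DBA x C57BL/6 females. The naturally born animals, also 3 males and 2 females by their labels, were adults of the same line, which goes back to SJL x C57BL/6. The labels carry the same note on frozen germ cells for both groups, so the groups were taken from the source name. Each animal's DNA carried Cy5 and was set against a pool in Cy3, mixed in equal parts from adult C57BL/6, SJL and DBA mice. The way of production and the strain background changed together, so their parts in any difference cannot be told apart.

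Chromosome X averaged 0.26 to 0.28 on the log2 scale in the 4 labelled females and -0.61 to -0.55 in 5 labelled males, a step of 0.85. The array labelled naturally born 3, a male by its label, stood apart from both at -0.03. On chromosome Y it had -0.0072, against 0.75 to 0.82 in the other labelled males and -1.57 to -1.42 in the labelled females. The level and group comparisons are given with and without it. Differences between neighbouring probes had an SD of 0.201, 0.208 and 0.173 on the arrays of ICSI-derived 1, ICSI-derived 4 and naturally born 2, and 0.140 to 0.151 on the other 7, per the file headers. The number of arrays limits the precision.

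Raet1 and H60 genes encode cell-surface proteins related to MHC class I, which are ligands of the activating receptor NKG2D (encoded by Klrk1) of natural killer cells and some T cells. The receptor signals through the adaptors DAP10, encoded by Hcst, and DAP12, encoded by Tyrobp. Such ligands appear on stressed, infected or transformed cells and mark them for killing, and inbred mouse strains carry different sets of Raet1 and H60 genes. Ulbp1 encodes MULT1, a further ligand of the same receptor.

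The scanner files pair probes with mm9 positions but not with genes, and the gene table used here is of GRCm38.p6, so no probe was assigned to a gene. In the RefSeq order of protein-coding genes, Sgk1, a kinase gene, 4930444G20Rik and E030030I06Rik are followed by Raet1e, H60b and Raet1d, then by Slc2a12, a glucose transporter gene, Tbpl1, a gene of a TATA-binding-protein-like factor, and Tcf21, a transcription factor gene. No protein-coding gene stands between Raet1e and H60b or between H60b and Raet1d. H60c, listed with this cluster, is not their neighbour: 90 protein-coding genes separate it from Raet1e, and 67 separate Ulbp1 from Raet1e. Klrk1 lies on chromosome 6 and Hcst and Tyrobp on chromosome 7. Raet1a, Raet1b, Raet1c and H60a were not matched in that table.

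Raet1d and Raet1e are given here by their promoter windows, because a Raet1e window is nearly the same sequence as that of Raet1d. The windows are 300 bases long and span the annotated start, on the plus strand of GRCm38.p6, from RefSeq, at chr10:22361644-22361943 for Raet1d and chr10:22173247-22173546 for one of 2 starts listed for Raet1e. These positions cannot be set beside the mm9 positions of the probes. Capitals mark the bases that differ.
Raet1d: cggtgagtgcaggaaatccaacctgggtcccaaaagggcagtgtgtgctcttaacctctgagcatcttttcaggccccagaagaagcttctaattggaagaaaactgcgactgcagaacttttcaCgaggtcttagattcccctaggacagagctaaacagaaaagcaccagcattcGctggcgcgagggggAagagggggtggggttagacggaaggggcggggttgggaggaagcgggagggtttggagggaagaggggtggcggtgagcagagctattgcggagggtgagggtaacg
Raet1e: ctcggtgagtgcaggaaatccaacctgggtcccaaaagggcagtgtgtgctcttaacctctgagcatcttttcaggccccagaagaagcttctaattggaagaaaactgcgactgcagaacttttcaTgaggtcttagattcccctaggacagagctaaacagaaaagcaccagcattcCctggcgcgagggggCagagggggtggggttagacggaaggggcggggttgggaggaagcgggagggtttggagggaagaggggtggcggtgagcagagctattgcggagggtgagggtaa
Over 298 aligned bases 3 differed, C126T, G178C and A193C, an identity of 99.0%. Positions are counted from 1 at the 5′ end of the Raet1d window, with the Raet1d base first. The window of the other Raet1e start was not alike, with 35.7% identity over the 56 bases of its best overlap. Of the 12-base words of the Raet1d window, the printed Raet1e window held 86.9%, and no other of 32850 promoter windows held more than 2.8%. Neither probe sequences nor a genome were used here, so how many places each probe can bind was not tested.

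Within the interval, 8 neighbouring probes formed a low stretch of 65.9 kb, from 22006887 to 22072759. It was found as the only stretch of chromosome 10 at or below -0.25 in the mean profile of the 10 animals, by splitting the chromosome into constant levels. ICSI-derived animals 1 to 5 had mean log2 ratios of -0.43, -0.34, -0.33, -0.39 and -0.31 over the 8 probes. Naturally born animals 1 to 5 had -0.36, -0.41, -0.37, -0.37 and -0.35. All 10 animals therefore lay in a narrow band below the pool, and the groups overlapped. The mean over all animals was -0.365 ± 0.035 (SD, n = 10), and -0.365 ± 0.037 (SD, n = 9) without naturally born 3. With a penalty factor of 6 in place of 3 no such stretch was found in the interval. With at least 10 probes per level it ran from 21904748 to 22072759 at a mean of -0.28, and the same 8 probes were found whichever animal was left out.

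**Figure D1:**
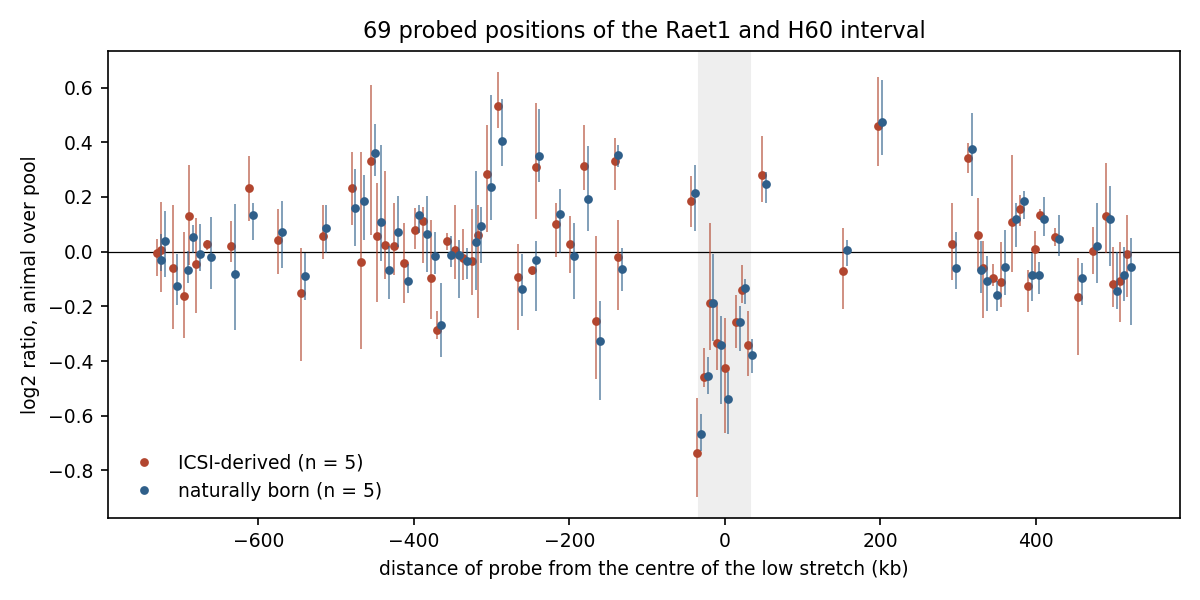
Log2 ratio of animal over pool at 69 probed positions (vertical axis) against the distance from the centre of the low stretch in kb (horizontal axis). Points are group means and lines run from the lowest to the highest of 5 animals per group. The shaded low stretch of 8 probes lies below 0 between adjoining probes that lie above 0.

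Of the 80 values in the low stretch, 79 were below 0, and the exception was ICSI-derived 3 at the probe at 22022579, at 0.10. The first probe, 22006887 to 22006946, was the lowest of the 8 in all 10 animals. ICSI-derived animals 1 to 5 had -0.89, -0.65, -0.71, -0.90 and -0.54 there, and naturally born animals 1 to 5 had -0.67, -0.72, -0.73, -0.59 and -0.63. The groups overlapped at this probe too. The next, at 22015626, averaged -0.46 ± 0.05 (SD, n = 10), with groups that again overlapped.

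Along the stretch the level was uneven. Means over 10 animals were -0.19 at 22022579, -0.34 at 22032732, -0.48 at 22041985, -0.26 at 22056260, -0.14 at 22063735 and -0.36 at 22072700. Thus the probe at 22063735, nearest to 0, and the probe at 22006887, at -0.70, belong to 1 called level but lay farther apart than their SDs between animals, 0.05 and 0.12. At 22041985 ICSI-derived animals averaged -0.42 and naturally born animals -0.54, the widest gap of group means in the stretch, and their values overlapped.

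**Figure D2:**
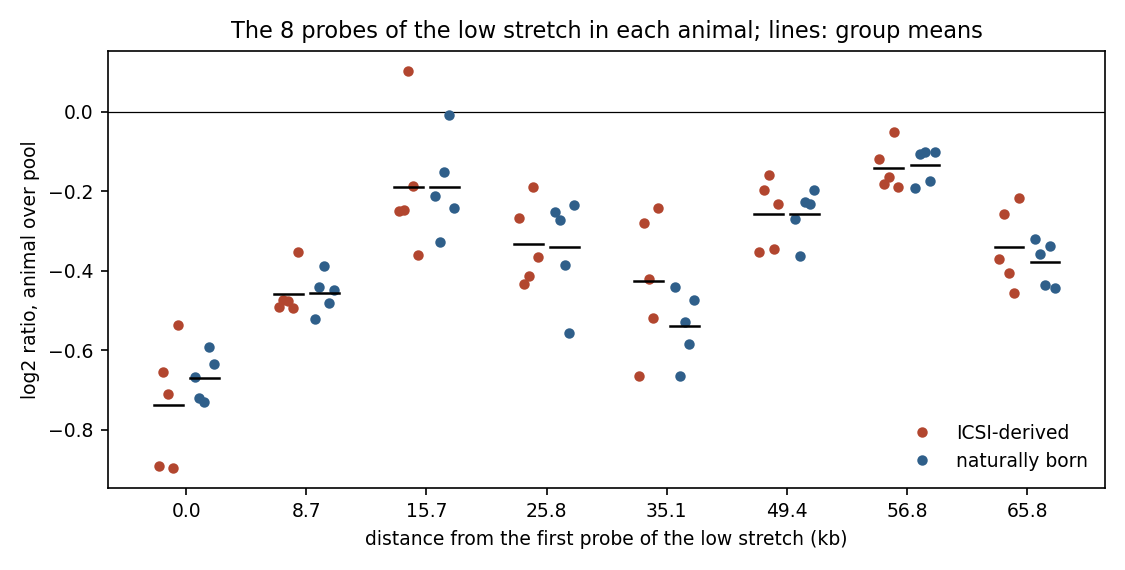
Log2 ratio of animal over pool (vertical axis) at each of the 8 probes of the low stretch, placed by distance from the first in kb (horizontal axis, not to scale). Points are single animals, 5 per group, and lines are group means. The first probe is the lowest in all 10 animals and 1 of 80 values lies above 0.

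The sides of the low stretch were placed on the mean profile of the same 10 animals, so a step at them partly follows from that choice. With at least 10 probes per level the left side moved to 21904748. The adjoining probe on the left, at 21998927, averaged 0.20, and that on the right, at 22090718, averaged 0.26. Both were above 0 in all 10 animals. Means of these 2 probes ran from 0.20 to 0.28 in ICSI-derived animals and from 0.18 to 0.28 in naturally born animals. All 8 low probes were below both adjoining probes in each of the 10 animals, and the drop was -0.60 ± 0.04 (SD, n = 10), from -0.65 to -0.52. The adjoining probes lay 8.0 kb to the left and 18.0 kb to the right of the stretch. Coverage was sparse beyond them, with a gap of 94.2 kb on the left and gaps of 103.8 and 95.2 kb on the right. Only 0.107% to 0.121% of neighbouring autosomal probes lay as far apart, against a median spacing of 10.84 kb on the autosomes and 8.96 kb in the low stretch.

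Splitting each animal's own profile called the same 8 probes as a segment in 3 of 10 animals. These were ICSI-derived 2, naturally born 1 and naturally born 3. In the other 7, whose means over the 8 probes ran from -0.43 to -0.31, no segment was called there.

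The low stretch was compared between the groups to ask whether animals from long-frozen germ cells differed there from naturally born ones. ICSI-derived animals averaged -0.36 ± 0.05 and naturally born animals -0.37 ± 0.02 (SD, n = 5 each). The difference, ICSI-derived minus naturally born, was 0.010 with a 95% interval from -0.051 to 0.062 (exact permutation test, two-sided, p = 0.675), smaller than the spread between animals. Without naturally born 3 it was 0.0105 (exact permutation p = 0.698), and without ICSI-derived 5 it turned to -0.0020 (exact permutation p = 0.929). Within the first slide it was -0.00028 and within the second 0.0081 (exact permutation p = 1.0 in each, with 2 animals of each group), and the third slide held 1 animal of each group.

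The 3 noisiest arrays had the 3 lowest values of the low stretch, from -0.43 to -0.39, against -0.37 to -0.31 on the other 7, and the part of noise in the level was not tested. Without them, a choice made after the values were seen, the difference was 0.033 (exact permutation p = 0.0571, 3 animals against 4), and the groups did not overlap. With ICSI-derived animals higher, no split of these 7 values gives a smaller p. The 3 ICSI-derived animals then lay between -0.34 and -0.31 and the 4 naturally born animals between -0.37 and -0.35.

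**Figure D3:**
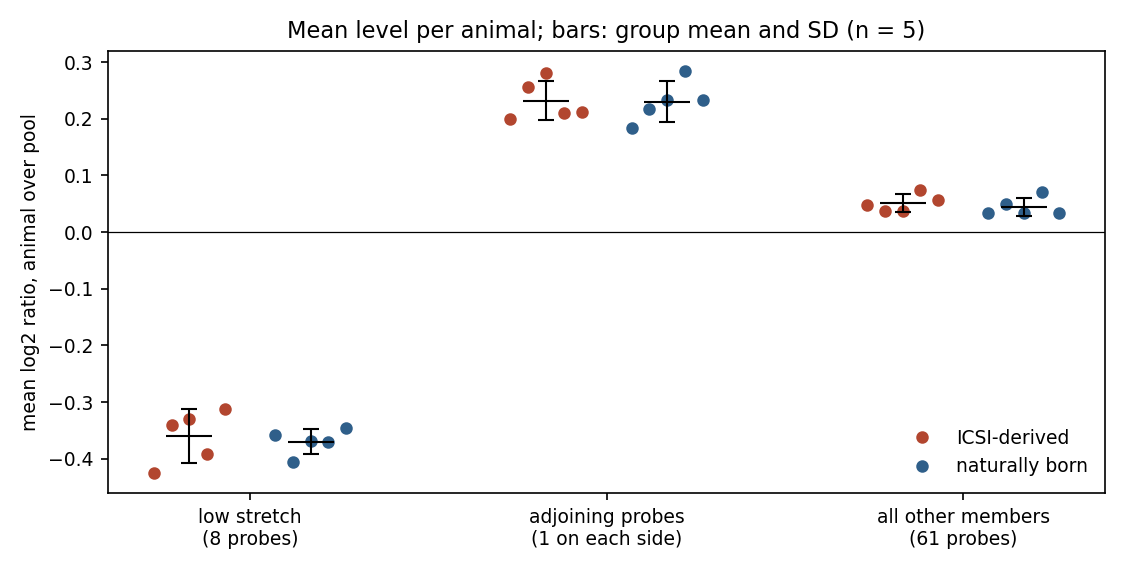
Mean log2 ratio of animal over pool (vertical axis) in each animal for 3 sets of probes (horizontal axis). Coloured points are single animals and black marks with bars are group means and SD (n = 5 each). The low stretch lies at -0.43 to -0.31 in all 10 animals and the groups overlap in each set.

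Over all 69 probes the groups were close. ICSI-derived animals averaged 0.0031 ± 0.013 and naturally born animals -0.0038 ± 0.013 (SD, n = 5 each), a difference of 0.0069 with a 95% interval from -0.013 to 0.028 (exact permutation test, two-sided, p = 0.373). At the 61 probes outside the low stretch the mean was 0.051 ± 0.016 in ICSI-derived and 0.044 ± 0.016 in naturally born mice (SD, n = 5 per group), with an exact permutation p of 0.476. Without naturally born 3 the difference was 0.0047 over all 69 probes (exact permutation p = 0.667) and 0.0039 over the 61 (exact permutation p = 0.690).

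Probe by probe, limma, with terms for group and sex and two-sided p-values adjusted by Benjamini-Hochberg over all autosomal probes at 0.05, called 0 of 69 members, against 0.0198% of autosomal probes, 32 of 161460. At so low a background a count of 0 is no result about the interval. At an unadjusted p under 0.05 it also held 0 members, against 3.27% of autosomal probes. Estimates were above 0 at 35 members and below 0 at 34, with a median of 0.0006, and in the low stretch they ran from -0.069 to 0.11 with 4 of 8 above 0. The smallest unadjusted p was at the probe at 21573785, with an estimate of -0.22 ± 0.10 (SE), and its limma adjusted p was 1.0.

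That probe also varied most between animals. ICSI-derived animals 1 to 5 had 0.09, -0.16, -0.36, 0.36 and -0.11 there, and naturally born animals 1 to 5 had 0.28, 0.04, 0.17, 0.26 and 0.17. The ICSI-derived animals held both the lowest and the highest value, so the groups overlapped. It was the only member whose SD between animals, 0.23, passed 0.212, the 95th percentile of autosomal probes. The next widest ranges were -0.54 to 0.06 at 21876488, -0.18 to 0.39 at 21594753, 0.06 to 0.61 at 21587063 and 0.07 to 0.57 at 21736016. The median SD was 0.096 over the members and 0.104 over autosomal probes.

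Probes above the pool lay on both sides of the low stretch. In all 10 animals 15 members were above 0, 21.7% of the 69, where 10.6% of autosomal probes were, and 11 members were below 0, 15.9%, where 9.12% were. With a mean of at least 0.25 as well there were 9 members, 13.0%, against 2.9% of autosomal probes. With a mean of -0.25 or less there were 7 members, 10.1%, against 1.31%, and 6 of the 7 lay in the low stretch. The shares below 0 restate the level that chose the interval. Those above 0 come from the same interval, chosen by its measured values, and were not tested. Without naturally born 3 the 4 counts of members were the same, against 11.2%, 9.78%, 3.02% and 1.42% of autosomal probes.

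The highest member was the probe at 21750107. ICSI-derived animals 1 to 5 had 0.66, 0.47, 0.45, 0.45 and 0.64 there, and naturally born animals 1 to 5 had 0.45, 0.31, 0.35, 0.36 and 0.56. The ICSI-derived mean of 0.53 stood above the naturally born mean of 0.41, with overlap and a limma adjusted p of 1.0. The probe at 22239716 averaged 0.47 ± 0.12, that at 22354926 averaged 0.36 ± 0.08, that at 21587063 averaged 0.35 ± 0.18 and that at 21900484 averaged 0.34 ± 0.05 (SD, n = 10 each). Of the 9 high members, 6 lay to the left of the low stretch and 3 to its right. High and low probes lay side by side: at 21876488, between high probes at 21860990 and 21900484, the mean was -0.29 ± 0.17, below 0 in 9 of 10 animals.

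Outside the stretch the members with a mean of -0.25 or less, at 21672123 and 21876488, had no neighbour as low. The probe at 21672123 averaged -0.28 ± 0.08 (SD, n = 10) and was below 0 in all animals, from -0.39 to -0.11. The next lowest, at 22496098, 22541585 and 22386739, averaged -0.13 each. At the bounds of the interval nothing stood out. The first probe inside, at 21312210, averaged -0.02 and the last outside it, at 21291875, averaged 0.03. On the other side the last probe inside, at 22559684, averaged -0.03 and the next outside, at 22619024, averaged -0.08.

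Animals shared the profile. Over the 69 probes Pearson's r between 2 animals was 0.634 to 0.889 among ICSI-derived pairs, 0.795 to 0.899 among naturally born pairs and 0.726 to 0.892 between the groups. Without the 8 low probes it was 0.432 to 0.848 among ICSI-derived pairs, 0.652 to 0.855 among naturally born pairs and 0.566 to 0.814 between the groups. All arrays share the pool and the probe sequences, neighbouring probes are not independent, and 2 of the 3 noisiest arrays are of ICSI-derived animals. Without naturally born 3 the highest r among naturally born pairs was 0.847 over the 69 probes and 0.765 without the low ones, and the other bounds were the same.

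Set against the rest of the autosomes, the low stretch was shallow and even. The mean autosomal profile held 14 stretches at or below -0.25, and this one ranked 13 from the lowest in level. Its SD between animals of 0.035 was the smallest of the 14, whose median was 1.04 and largest 2.05. Both ranks were the same without naturally born 3. The interval was chosen for a level below 0 in every animal, so its rank in SD partly follows from that choice. Of the 14 stretches, 8 were neighbouring pieces of 1 locus on chromosome 4, from 111742887 to 113251939, with SDs of 0.79 to 2.03, so the median and the rank in level mostly describe that locus. In all, the 14 stretches made up 7 loci. The 14 stretches held 5 to 25 probes, which also bears on their SD. In 3 others every animal was below 0, on chromosome 1 from 173457380 to 173511412, on chromosome 4 from 144993951 to 146023660 and on chromosome 7 from 17223386 to 17278987, with SDs of 0.764, 0.160 and 0.120.

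**Figure D4:**
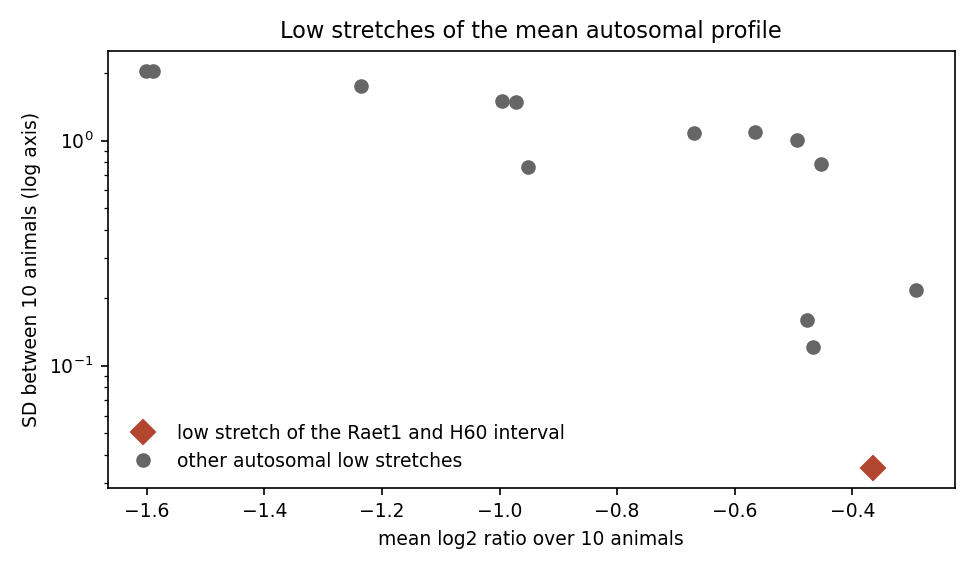
SD between 10 animals (vertical log axis) against the mean log2 ratio over 10 animals (horizontal axis) for the 14 low stretches of the mean autosomal profile. The stretch of the Raet1 and H60 interval, which was chosen for a level below 0 in every animal, has a mean of -0.365 and the smallest SD, 0.035.

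A log2 ratio cannot tell fewer copies in the animals from more copies in the pool, and no array held DNA of a single pool strain. For scale, 3 copies against 4 would ideally give -0.415 and 1 copy against 2 would give -1.0, while the measured step of chromosome X, ideally 1 copy against 2, was 0.85. No copy number was assigned.

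The 5 autosomal probes outside the interval with the most similar values over the 10 animals were at 24991481 and 110080021 on chromosome 7, 42703846 on chromosome 6, 114058410 on chromosome 13 and 146571826 on chromosome 5. Their mean absolute difference from the low stretch was 0.035 to 0.046 on the log2 scale, over 10 animals, and their means lay between -0.39 and -0.33.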

How the data were processed

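Per the file headers, the deposited scanner files hold spot intensities that Feature Extraction 10.7.3.1 had background-subtracted and dye-normalised. The deposited value table holds log10 ratios identical to those of the scanner files (Cy5 over Cy3). Partek 6.5 is named, with no role, in the submitters' processing notes. The build, mm9, is given in 6 array headers, and the 4 arrays without a named build carry the same positions. Control spots were left out and spots of a probe averaged. Log2 ratios of the processed intensities had the autosomal median of their array subtracted, with neither loess nor quantile normalization.

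Single probes were tested in R 4.3.3 with limma 3.58.1, and values per animal by exact permutation. Optimal partitioning split the profiles (penalty factor 3, minimum 5 probes, level 0.25), and isolated probes more than 4 robust SD from 10 neighbours were first pulled towards these. The limma and segmentation steps were tested on simulated data. Python 3.11.15, numpy 2.4.6 and pandas 2.3.3 did the rest.

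The members, lists, tests and alternatives were chosen with earlier results of these data known. Named probes are the low stretch, the 5 lowest, highest and most variable of the others, and those at the edges. The probe at 21860990 was named after its values were seen. Alternatives were other backgrounds, centring, normalization, filters, blocks, segmentation settings and left-out animals. All replicates are separate animals.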

Additional observations from a re-analysis of the deposited data

Results flagged for a closer look

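At the probe at 22015626, in the low stretch of the Raet1 and H60 interval, ICSI-derived 5 had a log2 ratio of -0.35, away from the other 4 ICSI-derived animals at -0.49 to -0.47. Its gap to the nearest of them was 0.855 of the group's range. In the naturally born group the probe showed no such value. Of 26 sets of 5 animals tested in this way 1 was singled out, and chance gives about 1 in 20. Leaving this animal out turned the sign of the group difference over the low stretch, as given above.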

How the results depend on the processing

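The mean of the low stretch stayed between -0.37 and -0.35 in 20 alternatives. It was -0.451 with normexp background correction and -0.276 with at least 10 probes per level, and a penalty factor of 6 gave no value. The cause of the first was not tested, while the second adds 2 probes. The level of the other members was 0.067 with normexp, against 0.0474, and the cause was not tested. The group difference over the low stretch was -0.00028 within the first slide, and -0.0020 to 0.0264 when each animal was left out. Over all 69 probes the same animals left out gave 0.0024 to 0.0126. Neither passed 0.05 in any alternative, which comparisons within slides or of paired signs (smallest p 0.0625) could not reach. Nor could the low stretch without the 3 noisiest arrays with ICSI-derived animals higher (exact permutation p = 0.0571). Without the 3 noisiest arrays, chosen after seeing the data, 6 of 69 members had an unadjusted limma p under 0.05. So did 8647 of 161460 autosomal probes in that setting, and limma called 0 members there and in the other 23 alternatives. Autosomal calls were 26 to 77 when each animal was left out, the highest without ICSI-derived 3, and 226 within the second slide, where 4 arrays were fitted, against 32; the cause was not tested. Same-numbered animals of the groups shared a slide and a labelled sex. Correlations of same-numbered deviations ran from -0.28 to 0.15, which cannot show whether the numbers pair the animals in another way. With a replicate block the low stretch differed by 0.010 (paired exact permutation p = 0.688) and all members by 0.0069 (paired exact permutation p = 0.188), and limma called 25 autosomal probes and 0 members. Depth does not apply to arrays. All members were well above background in both channels.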

Other observations

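The autosomes held 161327 overlapping runs of 8 neighbouring probes, and 130 of them, 0.0806%, had a mean over the 10 animals as low as that of the low stretch or lower. In 7 of the 130 every animal was at or below -0.25. Because the interval was chosen by its low level, these counts describe the stretch and are no test of it.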
